A study of Mus musculus with 6 samples.

Results

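The 9 genes described here are Lyz2, Cd68, Csf1r, Ccr2, Cx3cr1, Adgre1, Itgam, Cd14 and Nr4a1, which are widely used as marker genes of monocytes. They were taken by symbol, and each symbol matched 1 of the 44678 Ensembl gene identifiers counted in each library. The data comprise 6 RNA-seq libraries, 3 from wild type (WT) mice and 3 from miR-144/451 knockout (KO) mice, which lack the microRNA locus in every cell of the animal. All libraries were made from spleen leukocytes labelled CD8a+ with no treatment, the way of sorting is not given in the labels, and both genotypes were on the C57BL/6J background as far as the study's methods say. The methods give 1 age range for all animals of the study, which is that of young adult mice. The labels do not say whether each library came from a separate animal, so the p-values measure the spread between these libraries, which may be technical.

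Monocytes are made in the bone marrow, circulate in the blood and are held in reserve in the red pulp of the spleen. Classical monocytes carry high CCR2 and Ly6C and enter inflamed tissue, whereas nonclassical monocytes carry high CX3CR1, depend on NR4A1 and patrol the wall of vessels. Cytotoxic T cells and some dendritic cells (DCs) carry CD8a, whereas it is not a usual marker of mouse monocytes. None of the 9 genes belongs to monocytes alone. Macrophages express Csf1r, Adgre1 and Cd68, neutrophils express Lyz2 and Itgam, effector T cells and NK cells can express Cx3cr1, and Nr4a1 is switched on in lymphocytes by antigen receptor signals.

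The total deposited counts were between 8143971 and 8876570 per library, and 3 counts, taken as the floor of detection, corresponded to between 0.338 and 0.368 CPM (counts per 1000000 counts of the library). That floor covers counting error only. The deleted genes Mir144 and Mir451a were at a count of 0 in WT and KO alike, so the counts do not show the deletion. Libraries of the same genotype stood apart from each other. The summed level of the 9 genes was 1770 CPM in WT1, 936 in WT2 and 1143 in WT3, and 1888 in KO1, 2394 in KO2 and 842 in KO3. By this sum KO3 lay with WT2 and WT3, and WT1 lay nearest to KO1. This did not hold for each gene, and for Csf1r and Adgre1 WT1 lay nearer to the other WT libraries than to KO1 and KO2. In the whole table, 4 of 13024 tested genes passed an adjusted p of 0.05 in KO against WT, or 0.0307%, with 0.0154% in each direction. The p-values are those of the quasi-likelihood test in edgeR, adjusted after Benjamini and Hochberg.

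The deleted microRNAs are shown first, because a microRNA recognises its targets mainly through its seed, here bases 2 to 8, which is written in capitals. The sequences are those of RefSeq on GRCm38.p6, plus strand, and the microRNAs lie at chr11:78073047-78073066 (miR-144-3p), chr11:78073010-78073032 (miR-144-5p) and chr11:78073186-78073207 (miR-451a).
miR-144-3p: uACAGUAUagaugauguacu
miR-144-5p: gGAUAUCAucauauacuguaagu
miR-451a: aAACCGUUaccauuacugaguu

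The 3 seeds differ from each other, and their complementary 7-base words were searched on the sense strand of the longest annotated 3′-UTR of each gene (GENCODE M21). The words were ATACTGT for miR-144-3p, TGATATC for miR-144-5p, and for miR-451a the word AACGGTT. For miR-144-3p and miR-451a, none of the 9 genes held the word. The miR-144-3p word was present in 11.9% of all 21020 3′-UTRs and the miR-451a word in 1.75%. For miR-144-5p, 1 of the 9 genes held the word, and this gene was Cx3cr1. Among all 3′-UTRs 6.13% held the miR-144-5p word, and among the 2520 with a length within 20% of that of Cx3cr1 9.76% did. The word is shown in capitals with its neighbouring bases, and it begins at base 1610 of the 2587-base Cx3cr1 3′-UTR.
Cx3cr1: ggcggcatgtcTGATATCtccttggcag
A match of these letters is a description and not a tested site.

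In KO against WT, 0 of the 9 genes passed an adjusted p of 0.05, beside 0.0307% of all tested genes. All 9 genes passed the filter on low counts. At an unadjusted p under 0.05 there were 2 genes, Csf1r and Adgre1, both with the higher mean in KO, beside 6.25% of all genes, 4.14% with the higher and 2.11% with the lower mean in KO. Neither gene kept an unadjusted p under 0.05 with DESeq2, with limma voom, or in edgeR without WT2, WT3, KO1 or KO2, where the values were from 0.0761 to 0.172. The WT and KO ranges overlapped for each of the 9 genes, whereas 11.5% of all tested genes had ranges that did not overlap. The mean of 8 of the 9 genes was higher in KO, beside 50.6% of all genes with a fold change above 0, and the exception was Cx3cr1. The median log2 fold change of the 9 genes was 0.38, and that of all tested genes was 0.0030. Without KO2, 5 of the 9 genes had a fold change above 0 and the median was 0.076, so that both rested largely on 1 library. Because these are bulk samples, fewer cells of a type and less RNA per cell cannot be told apart. Exact two-sided permutation tests of the single genes gave p-values from 0.3 to 1, where 0.1 is the smallest p that 3 libraries against 3 allow.

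**Figure D1:**
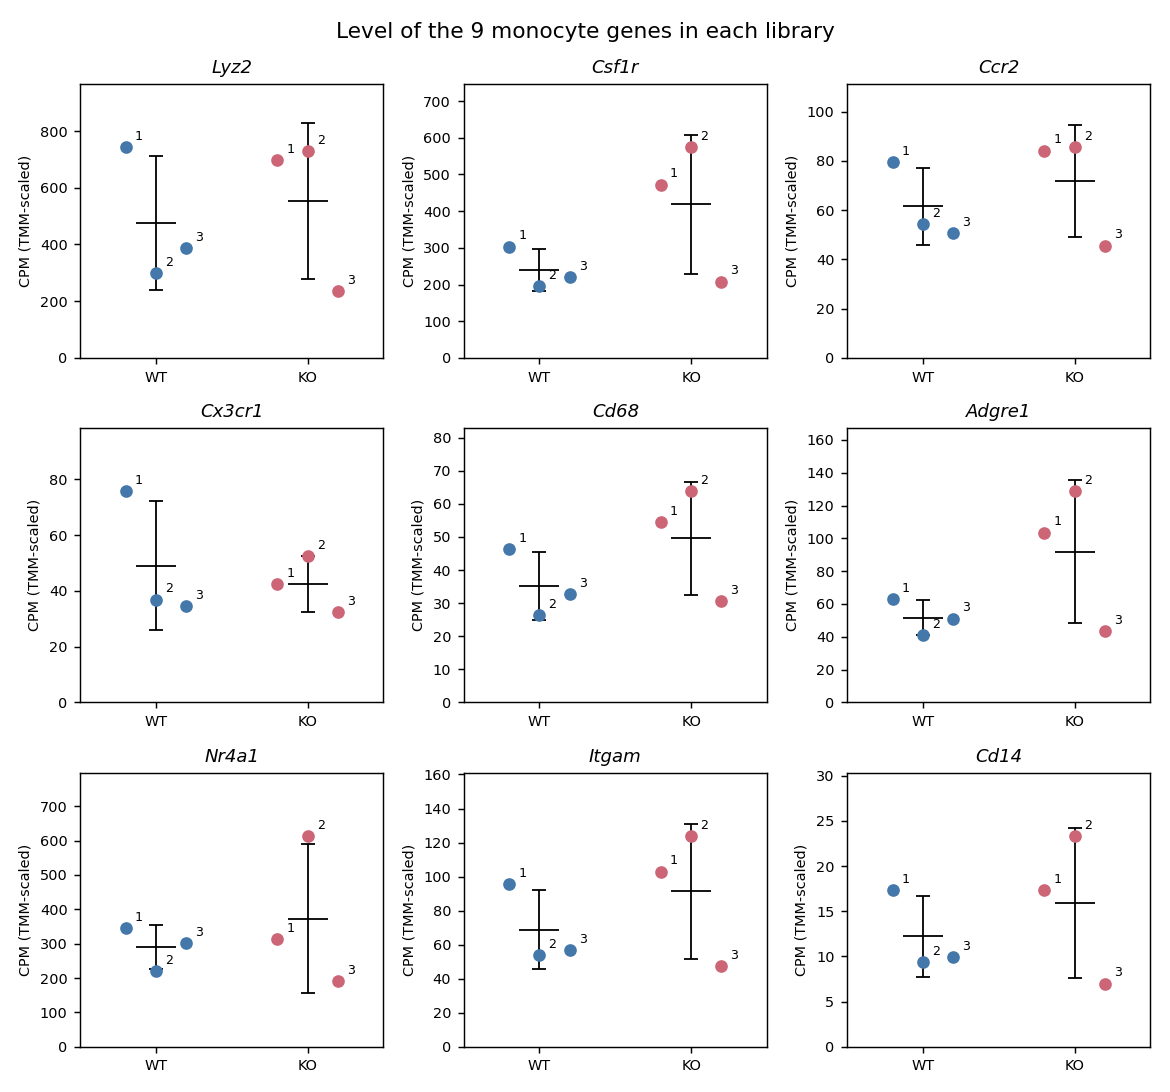
CPM (scaled by TMM, a correction for library composition) of each of the 9 genes, with 1 point per library numbered by replicate, and with the mean (horizontal bar) and SD (vertical line) of 3 libraries. For all 9 genes KO3 lies at or near the bottom, WT1 is the highest WT library, and the WT and KO points overlap.

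The first pair of genes are products of phagocytes. Lyz2 encodes the lysozyme of myeloid cells, which cleaves bacterial cell walls, and it is found at positions 117277331 to 117282321 of chromosome 10 (minus strand, GRCm38 as for all positions given here). Lyz2 reached 744 CPM in WT1, 298 in WT2 and 386 in WT3, and 697 in KO1, 728 in KO2 and 236 in KO3. WT1, KO1 and KO2 formed a group of high values in which both genotypes were present. The means were 476 ± 236 CPM for WT (SD, n = 3) and 554 ± 276 CPM for KO (SD, n = 3), and the log2 fold change was 0.22 (standard error 0.45), 95% interval -0.82 to 1.26 (edgeR adjusted p = 0.937). It turned to -0.031 without WT2, -0.0018 without KO1 and -0.029 without KO2, and was 0.69 without WT1, so that its sign was not fixed by these libraries. Lyz2 has a near copy, Lyz1, the lysozyme of intestinal Paneth cells, with which it shares 32.8% of its 31-base words. Lyz1 was between 0.579 and 1.94 CPM in the 6 libraries, and with both genes summed the log2 fold change was again 0.22.

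Cd68 encodes macrosialin, a glycoprotein of lysosomes and endosomes in mononuclear phagocytes. The gene is found at positions 69664213 to 69666153 of chromosome 11 (minus strand), 8.41 Mb from Mir144. Its level was 46.3 CPM in WT1, 26.4 in WT2 and 32.8 in WT3, and 54.5 in KO1, 63.8 in KO2 and 30.6 in KO3. KO1 and KO2 were above all WT libraries, and KO3 was below WT1 and WT3. With 35.1 ± 10.2 CPM for WT (SD, n = 3) and 49.6 ± 17.1 CPM for KO (SD, n = 3), the log2 fold change came to 0.50 (standard error 0.29) with a 95% interval from -0.17 to 1.16 (edgeR adjusted p = 0.816).

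Csf1r encodes the receptor for CSF1 and IL-34, the growth factors on which most monocytes and macrophages depend, and is found at positions 61100598 to 61132149 of chromosome 18 (plus strand). It reached 303 CPM in WT1, 196 in WT2 and 219 in WT3. In KO it reached 472 CPM in KO1 and 575 in KO2, but 208 in KO3. KO1 and KO2 were far above every WT library, whereas KO3 was within the WT range. The means were 239.5 ± 56.4 CPM for WT (SD, n = 3) and 418 ± 189 CPM for KO (SD, n = 3). The log2 fold change came to 0.80 (standard error 0.34) with a 95% interval from 0.025 to 1.58, with an unadjusted p of 0.0446 and an adjusted p of 0.786 by edgeR. Over 15.1% of its exon bases Csf1r overlaps Hmgxb3 on the opposite strand, and whether strand was used for counting is not given in the sources used here. Hmgxb3 itself was between 57.1 and 71.4 CPM in the 6 libraries and did not have the pattern of Csf1r.

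The ligands of the receptors were scarce. Csf1 was between 6.76 and 21.4 CPM, with its highest values in KO2, KO1 and WT1, as for the receptor gene. Ccl2, a ligand of CCR2, was between 0.115 and 2.41 CPM, and Cx3cl1, the ligand of CX3CR1, was between 0.114 and 0.579 CPM. Il34, Ccl7, Ccl8 and Ccl12 had a count of 0 in every library. No ligand passed the test among the 2 of 7 with enough counts, Csf1 and Ccl2.

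The receptor genes Ccr2 and Cx3cr1 are the pair by which classical and nonclassical monocytes are commonly told apart. Ccr2 encodes the receptor that draws monocytes out of the bone marrow towards CCL2. It is found at positions 124101950 to 124113557 of chromosome 9 (plus strand). It reached 79.5 CPM in WT1, 54.2 in WT2 and 50.8 in WT3, and 84.2 in KO1, 85.6 in KO2 and 45.6 in KO3. This was the narrowest range of the 9 genes, with the highest library at 1.88 times the lowest. The means were 61.5 ± 15.7 CPM for WT (SD, n = 3) and 71.8 ± 22.7 CPM for KO (SD, n = 3), with a log2 fold change of 0.22, a standard error of 0.26 and a 95% interval from -0.37 to 0.82 (edgeR adjusted p = 0.888).

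Cx3cr1 encodes the receptor for the membrane-bound chemokine fractalkine. It lies on the same chromosome from 119901616 to 120069879 on the minus strand. Its level was 75.6 CPM in WT1, 36.9 in WT2 and 34.5 in WT3, and 42.4 in KO1, 52.5 in KO2 and 32.4 in KO3. Unlike Csf1r, Cx3cr1 had its highest value in a WT library, WT1, and KO1 was close to WT2. The means were 49.0 ± 23.1 CPM for WT (SD, n = 3) and 42.4 ± 10.04 CPM for KO (SD, n = 3), with a log2 fold change of -0.21, a standard error of 0.31 and a 95% interval from -0.92 to 0.50 (edgeR adjusted p = 0.906). Without WT1 the log2 fold change was 0.25, so that 1 library decided its sign. The list of 12 effector CD8 T cell and NK cell genes was highest in WT1 when summed, at 717 CPM against 445 to 699 CPM in the other libraries, with 179.6 of the 717 CPM from Gzma. Its mean over genes on the log2 scale was highest in KO2, at 0.52 above the mean of the libraries against 0.42 in WT1. The part of these cells in the level of Cx3cr1 was not tested.

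Adgre1 encodes F4/80, the adhesion G protein-coupled receptor used to identify mouse macrophages, and is found at positions 57358691 to 57483527 of chromosome 17 (plus strand). Its level was 62.8 CPM in WT1, 41.2 in WT2 and 51.0 in WT3, and 103 in KO1, 129 in KO2 and 43.6 in KO3. As for Csf1r, KO1 and KO2 were above every WT library and KO3 was among the WT libraries. The means were 51.6 ± 10.8 CPM for WT (SD, n = 3) and 91.9 ± 43.6 CPM for KO (SD, n = 3). The log2 fold change came to 0.83 (standard error 0.35) with a 95% interval from 0.026 to 1.63, with an unadjusted p of 0.0444 and an adjusted p of 0.786 by edgeR. Without KO3, the lowest KO library for each of the 9 genes, the log2 fold change was 1.15 with an adjusted p of 0.0318 from the same edgeR test. Adgre1 was the 1 gene of the 9 that passed in that setting, beside 0.707% of all genes. Csf1r was then at 1.11 with an edgeR adjusted p of 0.0503.

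Itgam encodes CD11b, the alpha chain of the complement receptor CR3, through which myeloid cells adhere and take up opsonised particles. It is found at positions 128062640 to 128118491 of chromosome 7 (plus strand). Its level was 95.5 CPM in WT1, 53.9 in WT2 and 56.8 in WT3, and 103 in KO1, 124 in KO2 and 47.4 in KO3. WT1 was nearer to KO1 than to the other WT libraries. With 68.7 ± 23.2 CPM for WT (SD, n = 3) and 91.4 ± 39.5 CPM for KO (SD, n = 3), the log2 fold change came to 0.41 (standard error 0.35) with a 95% interval from -0.39 to 1.21 (edgeR adjusted p = 0.870). The annotated gene Gm49368 covers 68.7% of the exon bases of Itgam on the same strand, so its reads could have been divided, and Gm49368 was not analysed here. Itgb2 encodes CD18, the beta chain that pairs with CD11b and also with the alpha chains of lymphocytes. Itgb2 was nearly level, between 564 and 597 CPM in all 6 libraries, while Itgam varied 2.61-fold.

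Cd14 encodes the co-receptor that hands lipopolysaccharide to TLR4 and MD-2, and is found at positions 36725067 to 36726798 of chromosome 18 (minus strand). It had the lowest level of the 9 genes and rested on 61 to 194 counts per library. Its level was 17.3 CPM in WT1, 9.36 in WT2 and 9.93 in WT3, and 17.4 in KO1, 23.3 in KO2 and 6.99 in KO3. The highest and the lowest library were both KO, 3.34-fold apart. The means were 12.2 ± 4.46 CPM for WT (SD, n = 3) and 15.9 ± 8.27 CPM for KO (SD, n = 3), with a log2 fold change of 0.38, a standard error of 0.42 and a 95% interval from -0.60 to 1.35 (edgeR adjusted p = 0.883). Without KO2 the log2 fold change of Cd14 was -0.0060. Tlr4 was between 5.36 and 19.1 CPM and had its highest values in KO1, KO2 and WT1. Ly96, which encodes MD-2, stayed between 1.03 and 2.28 CPM, and Lbp, which encodes the binding protein of lipopolysaccharide, between 0.687 and 3.01 CPM.

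Nr4a1 encodes an orphan nuclear receptor that is needed for nonclassical monocytes and is also an immediate early gene of activated lymphocytes. It is found at positions 101254269 to 101274795 of chromosome 15 (plus strand). Nr4a1 reached 346 CPM in WT1, 220.0 in WT2 and 302 in WT3, and 314 in KO1, 613 in KO2 and 191 in KO3. KO2 stood apart, and KO1 lay within the WT range. The means were 289 ± 64.0 CPM for WT (SD, n = 3) and 373 ± 217 CPM for KO (SD, n = 3), with a log2 fold change of 0.37, a standard error of 0.38 and a 95% interval from -0.50 to 1.23 (edgeR adjusted p = 0.877). Without KO2 the log2 fold change was -0.20, so that this library decided its sign. The related genes were lower, with Nr4a2 at 30.0 CPM in KO2 and 11.2 to 16.5 CPM elsewhere, and Nr4a3 between 16.9 and 26.7 CPM. The summed list of 16 immediate early genes was also highest in KO2, at 10747 CPM against 6013 to 8219 CPM in the other libraries, and its part in the level of Nr4a1 was not tested.

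**Figure D2:**
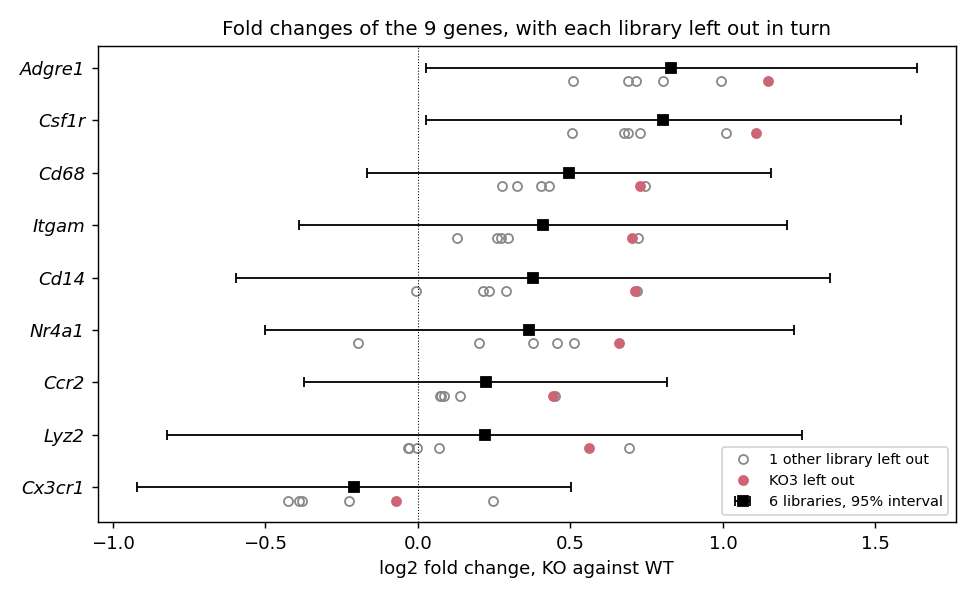
Log2 fold changes of the 9 genes in KO against WT from edgeR, as squares with 95% intervals for all 6 libraries and as circles with 1 library left out, filled where that library is KO3. The intervals of Csf1r and Adgre1 begin at 0.025 and 0.026, and the other 7 include 0. KO3 is the lowest KO library for all 9 genes, so the values without it lie to the right of the squares.

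Levels were compared between genes per kilobase of exon, since long transcripts give more reads. On this scale the mean over the 6 libraries was 391 CPM per kb for Lyz2, 94.3 for Nr4a1, 57.0 for Csf1r and 33.7 for Cd68. It was 22.2 CPM per kb for Adgre1, 15.9 for Itgam, 10.1 for Cx3cr1, 9.86 for Ccr2 and 8.11 for Cd14. Lyz2 was thus at the 99.1st percentile of the tested genes and Cd14 at the 55.2nd. The ranges of Lyz2, 179 to 565, and Nr4a1, 54.5 to 175, did not overlap. All other neighbours in this order had overlapping ranges over the libraries.

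The 9 genes shared an order of libraries that cut across genotype. WT1, KO1 and KO2 were the 3 highest libraries for 9 of 9 genes, beside 13.7% of all tested genes, and these libraries were named from the summed level of the same 9 genes, so that the count is a description. The highest library was between 1.88 and 3.34 times the lowest, and the ratio of the KO mean to the WT mean was between 0.866 and 1.78. A ratio of means cannot exceed the ratio of the extremes for any gene, so no conclusion is drawn from this difference. WT1, KO1 and KO2 were also the highest libraries for 12 of 14 tested genes of a classical monocyte list, 9 of 12 of a nonclassical list and 11 of 16 of a shared myeloid list. The same held for 12 of 12 B cell genes and 13 of 13 neutrophil genes, but for 0 of 14 CD8 T cell genes, of which 12 had the same libraries lowest, beside 11.9% of all genes. The order was therefore not particular to the genes of monocytes, and how far the other cells contributed to the 9 genes was not tested.

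The levels of the other cells were as follows. Summed B cell genes were between 3540 and 6342 CPM in WT and between 3378 and 6690 CPM in KO, and the lowest values were those of KO3, WT3 and WT2. Summed CD8 T cell genes were between 5598 and 7494 CPM in WT and between 4154 and 6889 CPM in KO. Cd8a, the gene of the sorted marker, was at 694, 1041 and 977 CPM in WT1 to WT3 and at 688, 476 and 1030 CPM in KO1 to KO3. Cd8a was thus lowest in KO2, where the summed level of the 9 genes was highest. Summed neutrophil genes were at 1363, 489 and 442 CPM in WT1 to WT3 and at 1493, 1629 and 566 CPM in KO1 to KO3. No B cell, neutrophil or T cell gene passed the test in edgeR with all libraries, and the median log2 fold changes were 0.28, 0.62 and -0.32. With 1 library left out these medians ran from 0.088 (without KO2) to 0.62 (without WT1) for B cell genes, from 0.27 (without WT3) to 1.59 (without WT1) for neutrophil genes and from -0.58 (without KO3) to -0.17 (without KO2) for CD8 T cell genes.

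**Figure D3:**
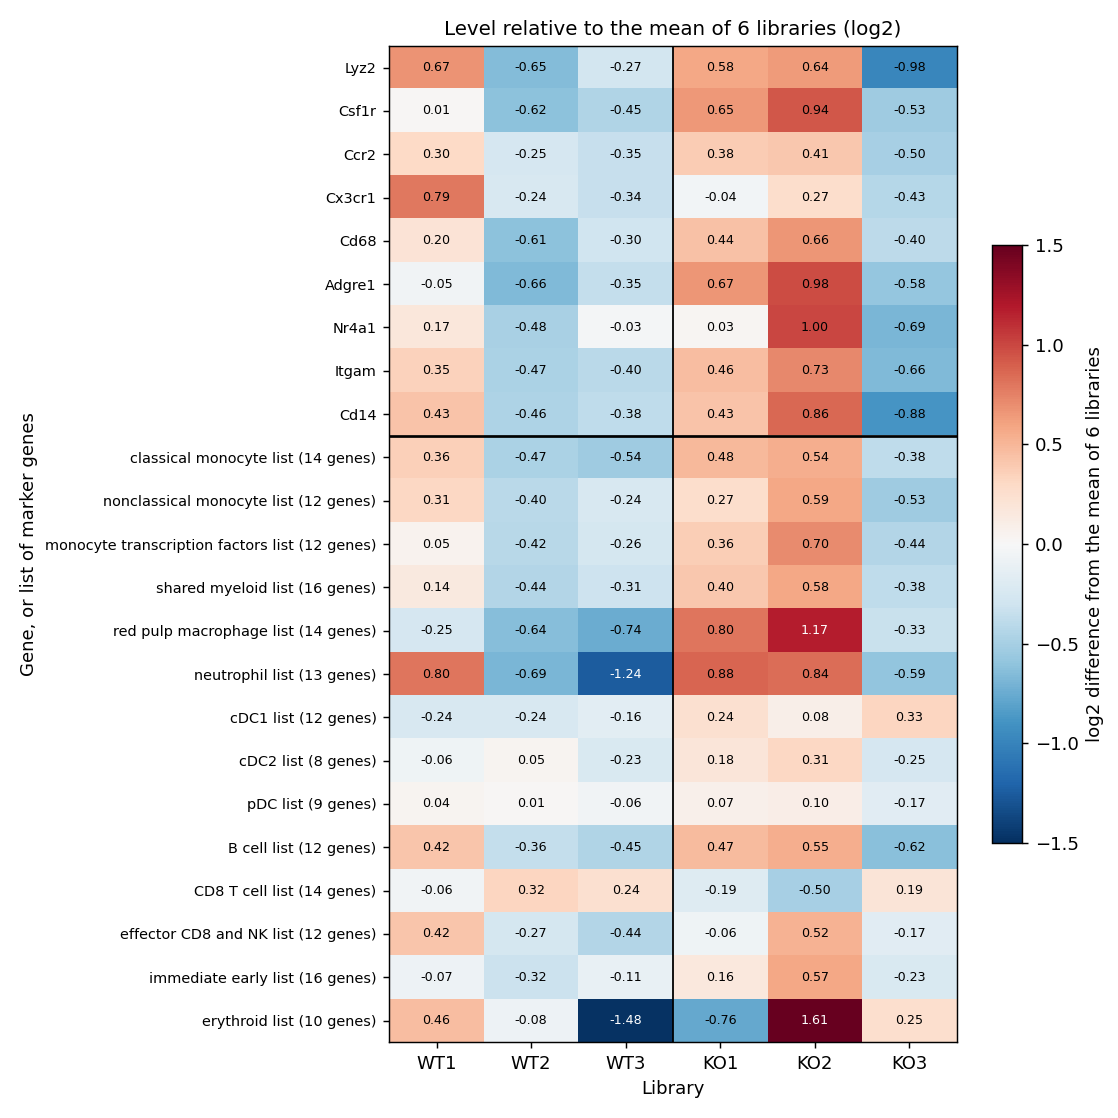
Level of the 9 genes (upper rows) and of 14 lists of marker genes (lower rows, mean over the genes of each list) in each library, as the log2 difference from the mean of the 6 libraries. WT2, WT3 and KO3 are below the mean for each of the 9 genes and for the monocyte, B cell and neutrophil lists, and above it for the CD8 T cell list.

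Genes that define monocytes and their subsets were present in all libraries but did not all follow the 9 genes. Of the 14 classical monocyte genes, 10 had the higher mean in KO with a median log2 fold change of 0.47, from 0.31 without KO1 to 0.83 without WT1, and 0 passed the edgeR test with all libraries. Ly6c2, which encodes the Ly6C of classical monocytes and is also made by memory CD8 T cells, was at 488, 452 and 422 CPM in WT1 to WT3 and at 320, 295 and 542 CPM in KO1 to KO3. Its highest library was KO3, where the 9 genes were low.

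Among 12 nonclassical monocyte genes, 10 had the higher mean in KO with a median log2 fold change of 0.24, and 0 passed the test. Without KO2 this median was -0.045, so that 1 library decided its sign. Treml4, a surface receptor of nonclassical monocytes, spleen macrophages and CD8a+ DCs, was at 45.2, 26.5 and 26.1 CPM in WT1 to WT3 and at 57.9, 79.0 and 41.2 CPM in KO1 to KO3 (log2 fold change 0.86, standard error 0.28, edgeR adjusted p = 0.716). Spn, which encodes CD43 and is made by T cells too, was between 481 and 521 CPM in WT and between 391 and 482 CPM in KO. Itgal, the alpha chain of LFA-1 in nearly all leukocytes, was between 700 and 809 CPM, and Pou2f2, shared with B cells, between 101 and 214 CPM. WT1, KO1 and KO2 were the highest libraries for Treml4 and Pou2f2, but not for Spn and Itgal.

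The transcription factors of the lineage had 11 of 12 means higher in KO, with a median log2 fold change of 0.46, from 0.21 without KO2 to 0.69 without KO3, and no gene past the edgeR test with all libraries. Irf8, which directs the making of monocytes and CD8a+ DCs, was at 289, 224 and 260 CPM in WT1 to WT3 and at 392, 385 and 287 CPM in KO1 to KO3 (log2 fold change 0.46, standard error 0.15, edgeR adjusted p = 0.712). For Maf, a transcription factor of macrophages, it was 0.93 (standard error 0.31, edgeR adjusted p = 0.716). Egr1 was between 184 and 253 CPM in WT and between 231 and 524 CPM in KO, and Cebpb between 59.2 and 171 CPM, with both ends in KO. In Tyrobp, the gene of a signaling adaptor of myeloid receptors, KO2 was highest and KO3 lowest, at 117 and 51.1 CPM. Of 16 shared myeloid genes all 16 had the higher mean in KO with a median log2 fold change of 0.36, from 0.22 without KO2 to 0.63 without WT1, and 0 passed in that fit. Among them Mpeg1, Psap and Ctsd were most abundant, and Mpeg1, a pore-forming protein of phagocytes, was between 287 and 409 CPM in WT and between 439 and 540 CPM in KO, without overlap.

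Csf1r and Adgre1 had the 2 largest fold changes of the 9 genes, and both are expressed by red pulp macrophages, which clear old erythrocytes and recycle their iron. The 14 genes of a list for these macrophages all had the higher mean in KO with a median log2 fold change of 1.25, and 0 of 14 passed the test, while 12 had an unadjusted p under 0.05, beside 6.25% of all genes. The summed list was at 849, 622 and 591 CPM in WT1 to WT3 and at 1732, 2179 and 807 CPM in KO1 to KO3. KO1 and KO2 were above every WT library, and KO3 was within the WT range, as for Csf1r and Adgre1. The same held for Cd68 and for the summed shared myeloid, transcription factor and neutrophil lists, so the pattern was not particular to these macrophages. For Slc40a1, the iron exporter ferroportin, the log2 fold change was 1.32 (standard error 0.28, edgeR adjusted p = 0.427), and for Mertk, a receptor for dying cells, it was 1.38 (standard error 0.35, edgeR adjusted p = 0.556). Unlike the sum, KO3 was above every WT library for Slc40a1, at 110 against at most 89.8 CPM, and for Mertk, at 21.3 against at most 19.5 CPM. Without KO3, 10 of the 14 genes passed the test, beside 0.707% of all genes, and with DESeq2 on all 6 libraries 4 did, beside 0.393%. The part of these macrophages in the levels of Csf1r and Adgre1 was not tested.

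Ratios between genes in the same library remove what the 9 genes share. There are 36 pairs, and the ratio of Csf1r to Adgre1 varied least of all of them. This ratio was 4.83, 4.76 and 4.30 in WT1 to WT3 and 4.56, 4.47 and 4.77 in KO1 to KO3, while Csf1r alone varied 2.93-fold and Adgre1 3.12-fold. Next came Itgam to Cd14, with ratios of 5.51, 5.76 and 5.72 in WT1 to WT3 and 5.93, 5.31 and 6.79 in KO1 to KO3. Genes in 1 library share its depth and composition, and the pairs were picked after their values were seen.

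Ratios that separated the genotypes were mostly those of Csf1r or Adgre1 to another gene, although none passed the adjusted test. The WT and KO ranges of the ratio did not overlap for 11 of 36 pairs (30.6%), against 11.6% of all pairs of tested genes with counts in every library, and 10 of the 11 were among the 14 pairs of Csf1r or Adgre1 with another of the 9 genes. Without KO3 it was 21 of 36 pairs, against 31.7% of all pairs. The pairs share genes and are not independent. Csf1r and Adgre1 had the 2 largest fold changes of the 9 genes in these same libraries and varied together. The count of their pairs therefore largely restates those fold changes and is a description. Csf1r to Itgam was 3.18, 3.64 and 3.86 in WT1 to WT3 and 4.59, 4.64 and 4.39 in KO1 to KO3. Csf1r to Cx3cr1 was 4.01, 5.32 and 6.36 in WT1 to WT3 and 11.1, 10.96 and 6.42 in KO1 to KO3, and Lyz2 to Csf1r was 2.45, 1.52 and 1.76 in WT1 to WT3 and 1.48, 1.27 and 1.14 in KO1 to KO3. Adgre1 to Itgam was 0.657, 0.764 and 0.897 in WT1 to WT3 and 1.01, 1.04 and 0.920 in KO1 to KO3. These 4 pairs were shown because their ranges did not overlap, so the side on which each library lies is given by that choice. The exact two-sided permutation p was 0.1 for each of them, the smallest that 3 against 3 libraries allow and the value of any pair without overlap, and 0.327 after Benjamini-Hochberg adjustment over the 36 pairs. The ratio of Ccr2 to Cx3cr1 was 1.05, 1.47 and 1.47 in WT1 to WT3 and 1.99, 1.63 and 1.41 in KO1 to KO3, and its ranges overlapped (exact permutation p = 0.3, adjusted p = 0.6).

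**Figure D4:**
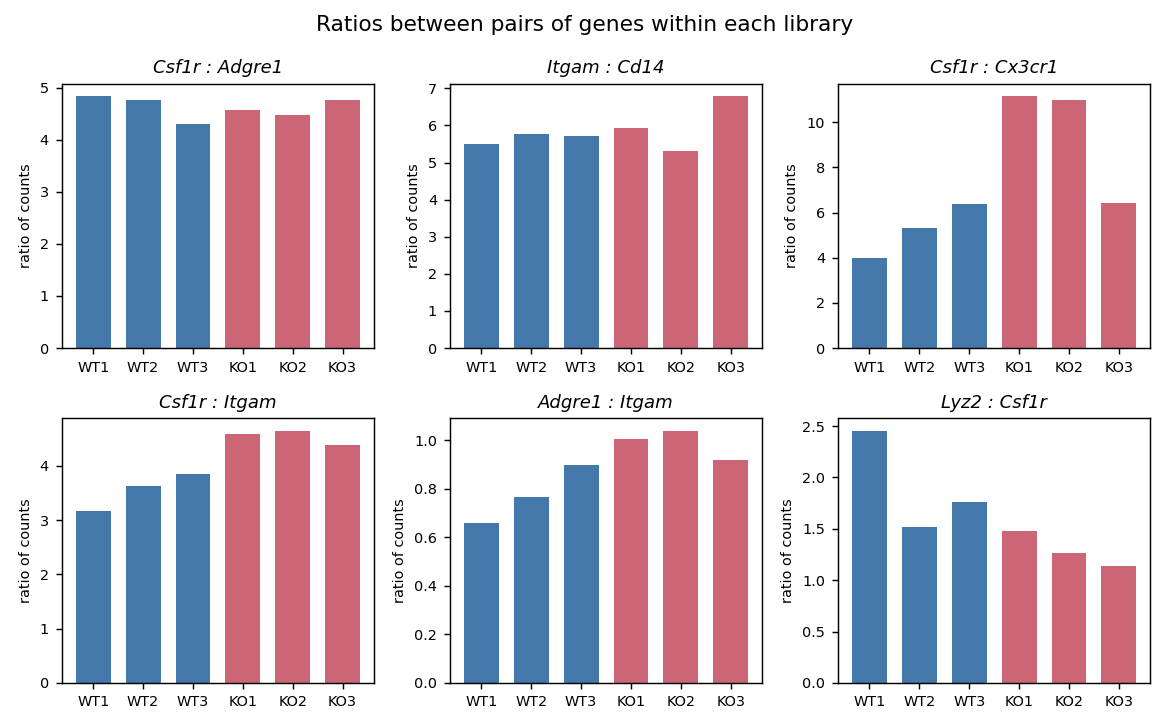
Ratios of counts between 6 pairs of genes in each library (blue, WT; red, KO), with axes from 0. Csf1r to Adgre1 stays between 4.30 and 4.83, Itgam to Cd14 stays between 5.31 and 6.79, and in Csf1r to Cx3cr1, Csf1r to Itgam, Adgre1 to Itgam and Lyz2 to Csf1r the WT and KO libraries do not overlap.

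Among the other lists, the genes of CD8a+ DCs (cDC1) did not share the order of the 9 genes. Their summed level was between 958 and 1075 CPM in WT and between 1299 and 1411 CPM in KO, without overlap. Wdfy4 had the highest level in the list, with means of 342 CPM in WT and 478 CPM in KO. Not all genes of the list separated, and the ranges of Cd24a overlapped, while 11.5% of all tested genes had ranges without overlap. With a median log2 fold change of 0.48, 0 of 12 genes passed the edgeR test. With DESeq2, and in edgeR without KO3, 1 of the 12 passed, Cadm1, an adhesion molecule of these cells. Of all genes, 0.393% passed with DESeq2 and 0.707% in edgeR without KO3. An unadjusted p under 0.05 was found for 8 of the 12, all higher in KO, beside 4.14% of all genes in that direction. KO3, low in the 9 genes, was at 1299 CPM in this list. The medians were 0.14 for 8 cDC2 genes, -0.016 for 9 pDC genes, -0.014 for 12 effector CD8 and NK genes, 0.32 for the immediate early genes and 0.93 for 10 erythroid genes, and 0 genes passed in any of them. Without KO2 the median of the immediate early genes was 0.086 and that of the erythroid genes 0.047, so that both rested largely on 1 library. Each of the other 3 medians changed its sign with 1 library left out, to -0.0088 for cDC2 genes without KO2, 0.16 for pDC genes without KO3 and 0.33 for effector CD8 and NK genes without WT1. Over all lists, 175 genes beside the 9 were tested and 0 passed in edgeR with all libraries. With DESeq2 5 of 176 passed, beside 0.393% of all genes. In edgeR without KO3 14 of 176 passed, beside 0.707% of all genes.

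Promoter sequences of RefSeq, from 250 bases before to 50 bases after the start, were available for 6 of the 9 genes, namely Lyz2, Ccr2, Cx3cr1, Cd68, Nr4a1 and Itgam. They were searched on both strands for GAGGAA, the core word of the myeloid factor PU.1, and for TTGCNNAA, a word of C/EBP factors, because the genes varied together. GAGGAA was found in Cd68 and Itgam, and in 28.3% of all 32851 promoters. TTGCNNAA was found in Cd68, and in 10.8% of all promoters. The windows of Itgam are shown with the word or its complement in capitals and are named by the position of its first base from the start of transcription.
Itgam at -84: gttttctcccgGAGGAAggctacagagg
Itgam at -15: ctcatagctttTTCCTCatacttctctg
Itgam at 33: gccttggtggcTTCCTCaaagtgtctgt
Spi1, which encodes PU.1 and is named here only for that reason, was between 68.7 and 143 CPM, lowest in KO3 and highest in KO2. A match of letters does not show binding.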

How the data were processed

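The 6 libraries, 3 WT and 3 KO, were analysed from 1 table each. The values that the authors deposited are expected counts by Ensembl identifier. They are not whole for every gene, and their totals differ between libraries, so no scaling to depth had been applied. The submitters' processing notes name the builds GRCm38 and mm10. Aligner, counting program, annotation and use of strand are not given in the sources used here. The library kit was of the SMARTER type, per the labels.

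Counts were rounded to whole numbers, filtered with filterByExpr (minimum count 10, minimum total 15), normalized by TMM and compared by the quasi-likelihood test of edgeR 4.0.16 in R 4.3.3, with Benjamini-Hochberg adjustment over 13024 genes. CPM are deposited counts scaled by TMM-corrected totals. Intervals are 95%. Alternatives used DESeq2 1.42.0 and limma 3.58.1 (voom), other filters and normalization, a replicate block and each library left out. The 9 genes and the lists were chosen with earlier results of these data known. The genes named from the lists were taken from the 3 genes with the highest mean and the 2 with the smallest p, and ligands and partners in full, and some of these genes are not reported here. Genes named for the DESeq2 fit, Spi1, Hmgxb3 and the pairs in the ratios were picked after their values were seen. The fit was tested on simulated data with 200 changed genes. At a log2 fold change of 1 it called 117 of them, with 4 false calls, so many changes of that size were missed. At a log2 fold change of 2 it called 183, with 14 false calls. Of 44678 identifiers, 44121 matched GENCODE M21 (GRCm38).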

Additional observations from a re-analysis of the deposited data

How the results depend on the processing

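The number of the 9 genes past an adjusted p of 0.05, 0 with all libraries, stayed 0 under upper-quartile normalization, DESeq2, limma voom, both other filters and the replicate block, and with 1 library left out it was from 0 to 1, the 1 being Adgre1 without KO3. The median log2 fold change of the 9 genes was from 0.25 to 0.38 in the former settings, 0.29 with the block, and from 0.076 to 0.72 with 1 library left out. Lyz2 turned to -0.031 without WT2, -0.0018 without KO1 and -0.029 without KO2, Nr4a1 to -0.20 and Cd14 to -0.0060 without KO2, and Cx3cr1 to 0.25 without WT1 (the cause was not tested). Over all fits without 1 library the values ran from -0.031 to 0.69 for Lyz2, -0.43 to 0.25 for Cx3cr1, -0.20 to 0.66 for Nr4a1 and -0.0060 to 0.72 for Cd14. Of the list genes, 5 passed with DESeq2 (Slc40a1, Mertk, Cd163, Cd5l and Cadm1), beside 0.393% of all genes, and from 0 to 14 with 1 library left out, the 14 without KO3, all higher in KO, beside 0.707% of all genes. Without KO3 they included Maf, Slc40a1 and Mertk. With 1 library left out the list medians ran from 0.27 to 1.59 for neutrophil genes, from 0.36 to 0.56 for cDC1 genes and from -0.040 to 0.16 for pDC genes, for which limma voom gave -0.053. They ran from -0.045 to 0.52 for nonclassical monocyte genes, from -0.0088 to 0.36 for cDC2 genes, from -0.12 to 0.33 for effector CD8 and NK genes, from 0.047 to 1.35 for erythroid genes and from 0.086 to 0.51 for immediate early genes. Those of the remaining lists ran from 0.088 to 0.62 for B cell genes, from 0.31 to 0.83 for classical monocyte genes, from 0.21 to 0.69 for transcription factor genes, from 0.22 to 0.63 for shared myeloid genes, from -0.58 to -0.17 for CD8 T cell genes, and from 0.89 to 1.53 for red pulp macrophage genes. Pairs of the 9 genes with ratios that did not overlap were from 11 to 21 of 36 with 1 library left out, the 21 without KO3, where 31.7% of all gene pairs did not overlap. The deviations of same-numbered WT and KO libraries correlated at -0.010, -0.20 and 0.11 across genes, so the replicate numbers were not taken as a pairing, and the block changed no call among the 9 genes. Counts of 61 to 194 limit the precision for Cd14. The alternatives for lists and pairs were added after the data were seen.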
